A study of Homo sapiens with 12 samples.

Results

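The antioxidant and redox defence genes described here were 39 genes chosen by name, and all 39 were found among the 35337 rows of the expression table. They comprise the regulators NFE2L1, NFE2L2 and KEAP1, the enzymes that make and recycle glutathione, and the peroxidases, thioredoxin proteins, superoxide dismutases, transferases and pentose phosphate enzymes that remove oxidants or supply reducing power. RNA was measured by CEL-seq2, which reads the 3′ end of transcripts, in EndoC-βH3, a human beta-like line derived from fetal pancreas. The comparison was between 6 samples of senescent cells and 6 samples of non-senescent cells, and the question taken here was which redox genes differ between them. The samples fell into batches A (2 per group) and B (4 per group), named by a letter in the sample titles.

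All 12 samples were of 1 line, labelled wild type, that was immortalised with hTERT and SV40 large T antigen. Large T antigen binds p53 and Rb, and both transgenes can be removed by a tamoxifen-activated Cre. Senescent cells had been treated with 4-hydroxytamoxifen for 3 weeks, whereas non-senescent cells were untreated and kept the transgenes. Exposure to the drug, loss of the transgenes and senescence therefore cannot be told apart. Both groups were grown in a low-glucose medium with sodium selenite, β-mercaptoethanol, transferrin and nicotinamide, of which selenite supplies the selenium of glutathione peroxidases and thioredoxin reductases and β-mercaptoethanol is itself a reducing agent. Levels of these genes in cells without such supplements were not measured. The labels do not say whether samples of a group came from separate cultures, so the p-values measure only the spread between these samples, which may be technical.

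Cells remove hydrogen peroxide and lipid peroxides through glutathione peroxidases, peroxiredoxins and catalase. The first of these draw electrons from glutathione and peroxiredoxins mostly from thioredoxin, and both pools are kept reduced by NADPH. The transcription factor NRF2, encoded by NFE2L2, drives many of these genes through antioxidant response elements and is held in check by KEAP1. Pancreatic beta cells are known for low expression of several of these enzymes, catalase and glutathione peroxidases among them.

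Promoter sequences (250 bases before to 50 bases after the gene start, from RefSeq, GRCh38.p14) were matched for 32 of the 39 genes and searched for the antioxidant response element core, TGACNNNGC, on both strands. The core was present in 6 of the 32 promoters (18.8%), against 13.6% of 27305 promoters of all genes and 14.9% of 10388 promoters of tested genes. The 6 were those of GCLM, GPX2, TXNRD1, GSTP1, GSTO1 and PGD. HMOX1, GSS, GSR, PRDX1, PRDX6, TXN2 and SOD1 had no promoter entry and were not searched. Sequence beyond the window was not searched for any gene, so a promoter without a match may have the core elsewhere. The AP-1 site TGACTCA, which can overlap the core, was found in 1 of the 32 (3.12%, GSTP1, within its core), in 4.92% of all promoters and in 2.88% of those of tested genes. The sequences of TXNRD1 (chr12:104215529-104215828, plus strand), GSTO1 (chr10:104254642-104254941, plus strand), GCLM (chr1:93909381-93909680, minus strand), GSTP1 (chr11:67583562-67583861, plus strand) and CAT (chr11:34438684-34438983, plus strand) are shown because they set 2 genes that fell and hold the core in 2 places each beside a gene of glutathione synthesis, a transferase with almost no reads and a gene that rose and has no core in this window. They run 5′ to 3′ on the strand of the gene, and capitals mark each match of the core in either orientation.
TXNRD1: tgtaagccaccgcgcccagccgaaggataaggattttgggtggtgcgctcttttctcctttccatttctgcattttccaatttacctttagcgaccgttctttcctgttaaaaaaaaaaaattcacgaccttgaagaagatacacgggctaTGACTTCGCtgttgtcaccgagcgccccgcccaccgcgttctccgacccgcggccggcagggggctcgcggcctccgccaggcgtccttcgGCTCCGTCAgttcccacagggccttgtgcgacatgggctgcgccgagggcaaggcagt
GSTO1: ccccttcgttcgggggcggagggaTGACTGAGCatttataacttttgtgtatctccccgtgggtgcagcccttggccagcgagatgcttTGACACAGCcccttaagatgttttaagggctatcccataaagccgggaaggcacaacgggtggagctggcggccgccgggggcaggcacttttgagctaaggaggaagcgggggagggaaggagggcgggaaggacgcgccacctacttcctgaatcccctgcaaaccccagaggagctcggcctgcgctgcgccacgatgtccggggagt
GCLM: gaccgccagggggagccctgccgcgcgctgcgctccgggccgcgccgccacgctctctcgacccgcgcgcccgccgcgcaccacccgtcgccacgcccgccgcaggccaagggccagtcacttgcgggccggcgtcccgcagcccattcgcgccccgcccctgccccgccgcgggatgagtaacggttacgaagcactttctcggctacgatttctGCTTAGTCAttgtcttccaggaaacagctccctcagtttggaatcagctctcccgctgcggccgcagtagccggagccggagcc
GSTP1: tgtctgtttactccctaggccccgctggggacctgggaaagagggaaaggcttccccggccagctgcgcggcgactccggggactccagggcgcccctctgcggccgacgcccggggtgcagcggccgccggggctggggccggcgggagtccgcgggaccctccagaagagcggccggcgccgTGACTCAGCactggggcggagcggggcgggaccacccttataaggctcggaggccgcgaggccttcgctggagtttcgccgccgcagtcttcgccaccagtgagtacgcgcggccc
CAT: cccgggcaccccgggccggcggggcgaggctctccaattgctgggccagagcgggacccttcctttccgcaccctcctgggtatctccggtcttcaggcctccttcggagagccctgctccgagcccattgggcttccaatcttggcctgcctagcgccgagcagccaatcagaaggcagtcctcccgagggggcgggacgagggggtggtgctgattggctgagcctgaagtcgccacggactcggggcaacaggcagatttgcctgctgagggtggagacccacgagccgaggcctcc
A match describes the letters of the window and not a bound site. Of the other genes called below, GPX4 fell and NFE2L1 rose, and neither has the core in its window. PRDX1, which also fell, was not searched. Whether the core goes with the direction of change was not tested. Gene starts here are those of RefSeq. The GSTO1 window lies inside the span that GENCODE gives for this gene (chr10:104235356-104267459), so it does not cover the start of that span.

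The libraries held 4672924 to 17106776 reads, and those of batch A (8873569 to 17106776) were deeper than those of batch B (4672924 to 7063264). Where a gene had 0 reads, up to 3 reads remain possible, which is 1.35 to 4.52 normalised read counts depending on the library. The first principal component of all genes separated the batches (57.6% of the variance) and the second the groups (19.3%). As a check of the labels, the cell cycle inhibitor CDKN1A was higher in senescent cells (log2 fold change 3.92) and the proliferation gene MKI67 lower (-2.83). INS, which encodes insulin, was higher (2.23), and each of these had non-overlapping groups. TERT did not fall, although the hTERT transgene is removed in senescent cells (0.28, adjusted p = 0.107 in limma). Whether transgene reads count towards TERT is not given in the sources used here. All 14 beta-cell markers examined were expressed, and their summed level was 77200 to 99853 ppm of reads in non-senescent and 89002 to 121343 in senescent libraries, most of it CHGA, which encodes chromogranin A of the secretory granules. Of these markers INS, IAPP and PDX1 were called higher and INSM1 and PCSK1 lower in senescent cells. Summed markers of exocrine and duct cells (38.99 to 61.3 ppm of reads in non-senescent and 28.8 to 54.6 in senescent libraries), fibroblasts (2.66 to 18.4 and 1.99 to 7.68, PDGFRB at 0), endothelium (0.676 to 3.48 and 0.502 to 1.93, VWF at 0) and immune cells (3.16 to 7.49 and 2.28 to 5.52, CD3E at 0) were low. Within these lists CPA1 was called higher (log2 fold change 2.25), and KRT19 (-1.35) and PTPRC (-1.58) lower. Their part in the results was not tested.

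Of the 39 redox genes, 37 passed a filter at a mean normalised read count of 5 and were tested with limma on log2(normalised read count + 1) with batch in the model. Calls needed an adjusted p below 0.1 together with a fold above 1.5 in either direction. In senescent cells 2 redox genes rose, NFE2L1 and CAT, and 4 fell, GPX4, PRDX1, TXNRD1 and GSTO1, so that 5.41% of the tested redox genes were called higher and 10.8% lower. Over all 13847 tested genes, 23.4% were called, 11.6% higher and 11.8% lower. The share of redox genes called lower was near that of all genes. In bulk RNA, fewer cells that express a gene and less of its RNA per cell cannot be told apart. A further 14 redox genes passed the adjusted p but not the fold limit, of which 12 were lower and 2 higher in senescent cells. Of all 13847 tested genes 3064 did so, 1455 of them lower and 1609 higher. The other 17 redox genes did not pass the adjusted p. Without the fold limit 20 of the 37 passed, 16 of them lower and 4 higher, and 45.5% of all genes did. The 2 genes below the filter were GPX8 and GSTP1.

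The shift of the redox genes was small and mostly downward. Their median log2 fold change was -0.16 against 0.01 for all genes, with a median of -0.04 for batch A and -0.25 for batch B. Fold changes were negative for 28 of 37 genes (75.7%, against 48.9% of all genes). The sign was negative in both batches for 20 genes and positive in both for 9, and it differed between batches for 8. Scaling every library to the same total moved the median of all genes from 0.01 to -0.09 and that of the redox genes to -0.27, and left 37.0% rather than 49.6% of all calls higher. The groups did not overlap in either batch for 9 redox genes. Of these, NFE2L1 and CAT were above in senescent cells, where 11.9% of all genes were, and GCLM, GPX4, PRDX1, PRDX2, SRXN1, TXNRD1 and TALDO1 were below, where also 11.9% of all genes were. No redox gene lay wholly above in one batch and wholly below in the other.

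**Figure D1:**
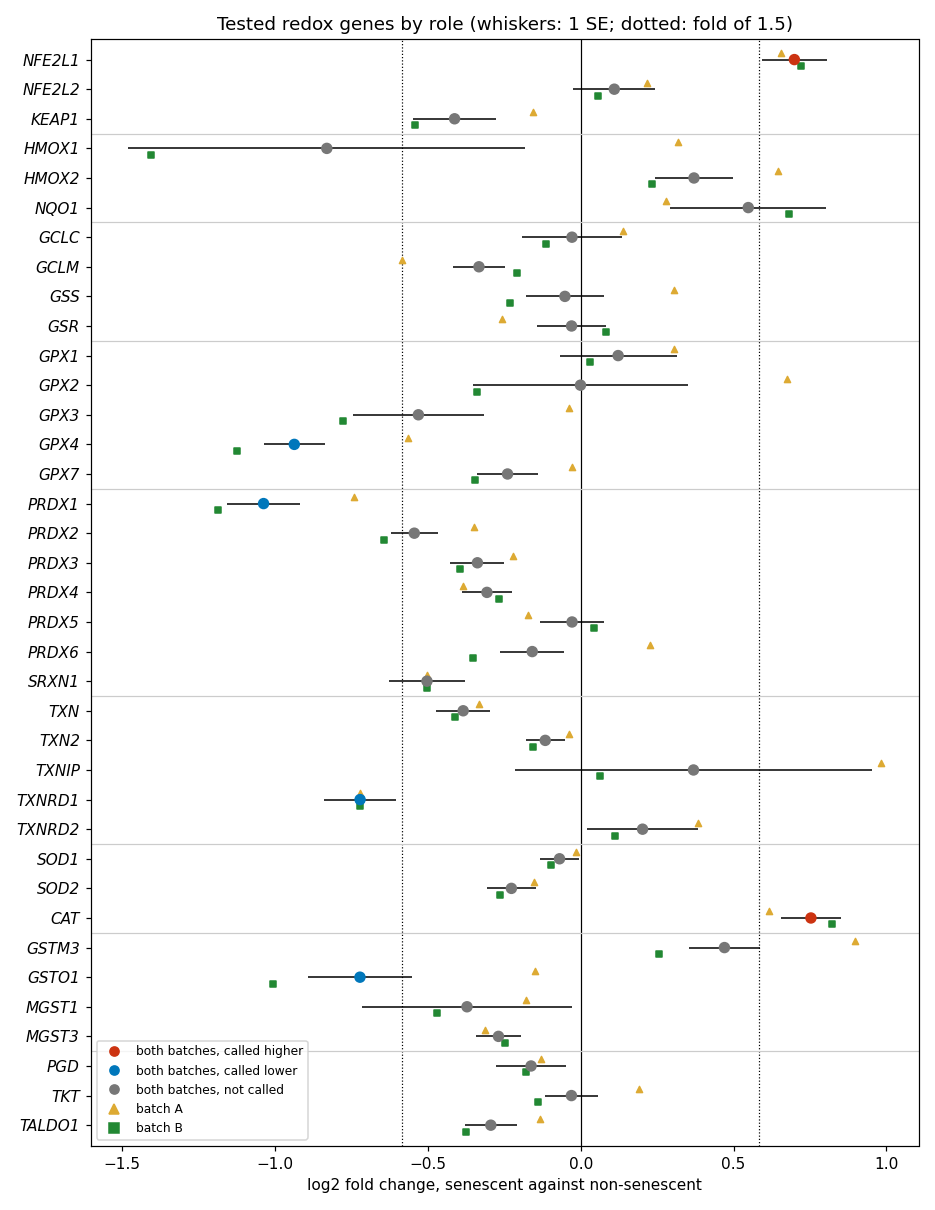
The log2 fold change of senescent against non-senescent cells (x axis) is plotted for the 37 tested redox genes, grouped by role, with circles and 1 SE whiskers for the fit over both batches, triangles for batch A and squares for batch B. Dotted lines mark a fold of 1.5, and the 2 called rises and 4 called falls are coloured. Most grey circles lie left of 0, and batch B lies left of batch A for many of the genes.

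Among the regulators, NFE2L1 rose while NFE2L2 and KEAP1 were not called. NFE2L1 (chr17:48048329-48061545, plus strand, protein coding as are all 39 genes) encodes NRF1, a factor of the endoplasmic reticulum membrane that is related to NRF2 and drives proteasome subunit genes. Its level was 245 and 203 normalised read counts in the non-senescent libraries of batch A and 343 and 361 in the senescent ones. In batch B it was 87.3, 118, 119.8 and 113 in non-senescent and 187, 171, 169 and 194 in senescent libraries. All senescent libraries lay above the non-senescent ones of their batch, although levels in batch A were higher than in batch B. The log2 fold change was 0.70 with a standard error of 0.11 (written ± hereafter, adjusted p = 5.06e-05 in limma), a 1.62-fold rise. Batch A gave 0.65 and batch B 0.72. Without the batch term the call was lost (adjusted p = 0.132).

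NFE2L2, which encodes NRF2, was at 51.1 and 38.9 normalised read counts in non-senescent and 61.5 and 44.1 in senescent libraries of batch A. In batch B it was at 125, 113, 134 and 130.5 against 116, 145, 117 and 147. The groups overlapped in both batches, and the log2 fold change of 0.11 ± 0.13 was smaller than its error (adjusted p = 0.556 in limma). KEAP1, the adaptor that marks NRF2 for degradation, was at 106 and 117 in non-senescent and 106 and 93.6 in senescent libraries of batch A, and at 126, 106, 123 and 130.5 against 61.8, 96.6, 87.0 and 90.9 in batch B. Its groups were apart in batch B alone. The log2 fold change of KEAP1 was -0.41 ± 0.14 (adjusted p = 0.024), below the fold limit.

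The classical NRF2 targets HMOX1 and NQO1 had few reads and were not called. HMOX1, the inducible heme oxygenase, had 77 reads in all non-senescent libraries together and 95 in the senescent ones. It was at 17.8 and 19.1 normalised read counts in non-senescent and 17.1 and 31.4 in senescent libraries of batch A. In batch B it was at 7.53, 2.75, 0 and 17.4 against 4.85, 1.05, 0 and 0, mostly within reach of the level that a count of 0 allows. Its log2 fold change of -0.83 ± 0.65 had opposite signs in the batches (0.32 for A, -1.40 for B, adjusted p = 0.338), so no difference was detectable at this depth. NQO1, a quinone reductase, was at 11.7 and 10.3 in non-senescent and 11.7 and 15.7 in senescent libraries of batch A, and at 13.6, 15.1, 11.7 and 21.1 against 35.1, 29.4, 20.6 and 17.4 in batch B. The log2 fold change of 0.55 ± 0.25 missed both limits (adjusted p = 0.101), and it passed both when non-senescent B4, senescent A1 or senescent B4 was left out (0.63 to 0.64). An antisense RNA overlaps the 3′ end of NQO1, and whether reads were counted by strand is not given in the sources used here. HMOX2, the constitutive heme oxygenase, was at 87.4 to 169 in non-senescent and 147 to 210.5 in senescent libraries, with a log2 fold change of 0.37 ± 0.13 (adjusted p = 0.0289) under the fold limit.

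No gene of glutathione synthesis or recycling was called. GCLC and GCLM encode the catalytic and modifier subunits of glutamate-cysteine ligase, the rate-limiting enzyme. GCLM was lower in every senescent library than in the non-senescent libraries of its batch, at 207 and 211 against 293 and 337 normalised read counts in batch A and at 460.5, 454, 449 and 429.7 against 506, 560.3, 528 and 479.6 in batch B. The difference was a log2 fold change of -0.33 ± 0.09 (adjusted p = 0.00533 in limma), or 1.26-fold. Batch A gave -0.58 and batch B -0.21. GCLC was at 71.6 to 228 in non-senescent and 71.0 to 225 in senescent libraries, and its log2 fold change was -0.03 ± 0.16 (adjusted p = 0.911). Glutathione synthetase (GSS, -0.05 ± 0.13) and glutathione reductase (GSR, -0.03 ± 0.11) were likewise at values smaller than their errors, with signs that differed between batches.

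In the glutathione peroxidase family GPX4 fell and GPX1 did not pass. GPX4 (chr19:1103982-1106791, plus strand) encodes the selenoenzyme that reduces lipid peroxides in membranes and guards against ferroptosis. Non-senescent libraries held 1985 and 1509 normalised read counts in batch A and 2918, 3173, 2687 and 3101 in batch B. Senescent libraries held 1226 and 1117 in batch A and 1453, 1259, 1276 and 1464 in batch B. All 6 senescent libraries lay below all 6 non-senescent ones. The log2 fold change was -0.94 ± 0.10 (adjusted p = 1.03e-06 in limma), a 1.91-fold fall. Batch B showed a larger fall (-1.12) than batch A (-0.56, under the fold limit when fitted alone), and this difference passed the test of the interaction between batch and group (adjusted p = 0.0825). Under that test 3 redox genes differed between batches, GPX4, PRDX6 and GSTM3, and 4.21% of all genes did. With every library scaled to the same total none of the 3 passed (adjusted p = 0.105 to 0.128).

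GPX1, the abundant cytosolic glutathione peroxidase of most tissues, was at 40.0 to 93.4 normalised read counts in non-senescent and 46.2 to 122 in senescent libraries, with a log2 fold change of 0.12 ± 0.19 (adjusted p = 0.653). Another annotated protein-coding gene on the same strand overlaps its 3′ end. The secreted enzyme GPX3 was at 222 and 151 in non-senescent and 169 and 188 in senescent libraries of batch A, which overlapped, and at 111, 92.2, 90.6 and 181 against 41.2, 66.1, 81.3 and 85.9 in batch B, which did not. Its log2 fold change was -0.53 ± 0.21 (adjusted p = 0.0603), made up of -0.04 in batch A and -0.78 in batch B. It passed the fold limit with libraries scaled to the same total (-0.64), in batch B alone, and without non-senescent A2 (-0.66) or senescent A2 (-0.61). GPX7, a peroxidase of the endoplasmic reticulum, was at 271 to 456 against 268 to 390.4 (-0.24 ± 0.10, adjusted p = 0.0714). GPX2 was near the limit of detection at 3.01 to 9.45 against 3.74 to 13.3, and GPX8 was not tested at a mean of 3.81 in non-senescent and 4.74 in senescent cells.

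Among the peroxiredoxins PRDX1 fell and none rose. PRDX1 (chr1:45510914-45542732, minus strand) encodes a cytosolic peroxiredoxin that reduces hydrogen peroxide with electrons from thioredoxin. It was at 388 and 401 normalised read counts in non-senescent and 234 and 237 in senescent libraries of batch A. In batch B it was at 244, 220.3, 197 and 244 against 78.8, 98.7, 120.2 and 101. The senescent libraries lay below the non-senescent ones of their batch in both batches. The log2 fold change was -1.04 ± 0.12 (adjusted p = 2.52e-06 in limma), a 2.05-fold fall. Batch A gave -0.74 and batch B -1.19. MMACHC lies on the opposite strand across the 3′ end of PRDX1 and was itself called lower (-0.90 ± 0.17, adjusted p = 4.60e-04, from a mean of 140.4 to 75.9). Without knowledge of the strand in counting, reads of the pair cannot be told apart.

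The other peroxiredoxins were shifted by less than the fold limit. PRDX2, cytosolic like PRDX1, was at 1398 and 1338 against 1112 and 1038 normalised read counts in batch A and at 640.0, 653, 583 and 673 against 374, 448, 420.1 and 389.9 in batch B. All its senescent libraries lay below those of their batch, and the log2 fold change of -0.54 ± 0.08 (adjusted p = 2.93e-05 in limma) was close to the limit, which it passed in batch B alone (-0.64) and with libraries scaled to the same total (-0.65). An antisense RNA overlaps its 3′ end. The mitochondrial enzyme PRDX3 (-0.34 ± 0.09, adjusted p = 0.0058) and PRDX4 of the endoplasmic reticulum (-0.31 ± 0.08, adjusted p = 0.00623) were lower by 1.26-fold and 1.24-fold. PRDX5 (-0.03 ± 0.10) and PRDX6 (-0.16 ± 0.10) did not pass, and PRDX6 had opposite signs in batch A (0.23) and batch B (-0.35), a difference that passed the interaction test (adjusted p = 0.0894). SRXN1, sulfiredoxin, which restores overoxidised peroxiredoxins and is a known NRF2 target, was at 186 and 183 against 134 and 126 in batch A and at 173, 211, 266 and 210.0 against 116, 146, 171 and 173 in batch B. Its groups were apart in both batches, in batch B by a margin under 1 count, and the log2 fold change of -0.50 ± 0.12 (adjusted p = 0.00366) was the same in either batch. SRXN1 passed the fold limit only with libraries scaled to the same total (-0.61), and another annotated protein-coding gene on the same strand overlaps its 3′ end.

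In the thioredoxin system the cytosolic reductase fell. TXNRD1 (chr12:104215779-104350307, plus strand), whose promoter is shown above, encodes the selenoenzyme that reduces thioredoxin with NADPH. Its level was 373 and 384 normalised read counts in non-senescent and 230.3 and 228 in senescent libraries of batch A, and 188, 180.3, 244 and 179 against 142, 124, 124 and 90.9 in batch B. All senescent libraries were below those of their batch. The fall was 1.65-fold (log2 fold change -0.72 ± 0.12, adjusted p = 1.02e-04 in limma) and the same in each batch (-0.72 in both). The call was lost without the batch term (adjusted p = 0.112). Thioredoxin itself (TXN) was at 894 and 908 against 719 and 711 in batch A and at 2436, 2394, 1635 and 2463 against 1639.6, 1694, 1577 and 1718 in batch B. Non-senescent B3 fell among the senescent libraries, and the log2 fold change was -0.38 ± 0.09 (adjusted p = 0.00235), under the fold limit. The mitochondrial pair TXN2 (-0.12 ± 0.06, adjusted p = 0.168) and TXNRD2 (0.20 ± 0.18, adjusted p = 0.406) did not pass. TXNIP, a thioredoxin-binding protein induced by glucose, had 26 reads in all non-senescent libraries together and 39 in the senescent ones (0.37 ± 0.58, adjusted p = 0.658).

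Catalase rose, and the superoxide dismutases did not. CAT (chr11:34438934-34472060, plus strand) encodes the peroxisomal enzyme that splits hydrogen peroxide without a reductant. It was at 310.1 and 311 normalised read counts in non-senescent and 505 and 449 in senescent libraries of batch A, and at 324, 377, 435 and 303 against 642, 572, 595 and 724 in batch B. All 6 senescent libraries were above all 6 non-senescent ones. The log2 fold change was 0.75 ± 0.10 (adjusted p = 1.05e-05 in limma), a 1.69-fold rise. Batch A gave 0.62 and batch B 0.82. SOD2, the mitochondrial superoxide dismutase, was at 1078 and 1187 against 868 and 1193 in batch A and at 748, 775, 801 and 866 against 708, 649, 617 and 683 in batch B. It was lower by 1.17-fold (-0.23 ± 0.08, adjusted p = 0.0357), with overlapping groups in batch A. Its cytosolic counterpart SOD1 was at 986 to 1379 in non-senescent and 939 to 1325 in senescent libraries (-0.07 ± 0.07, adjusted p = 0.432).

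**Figure D2:**
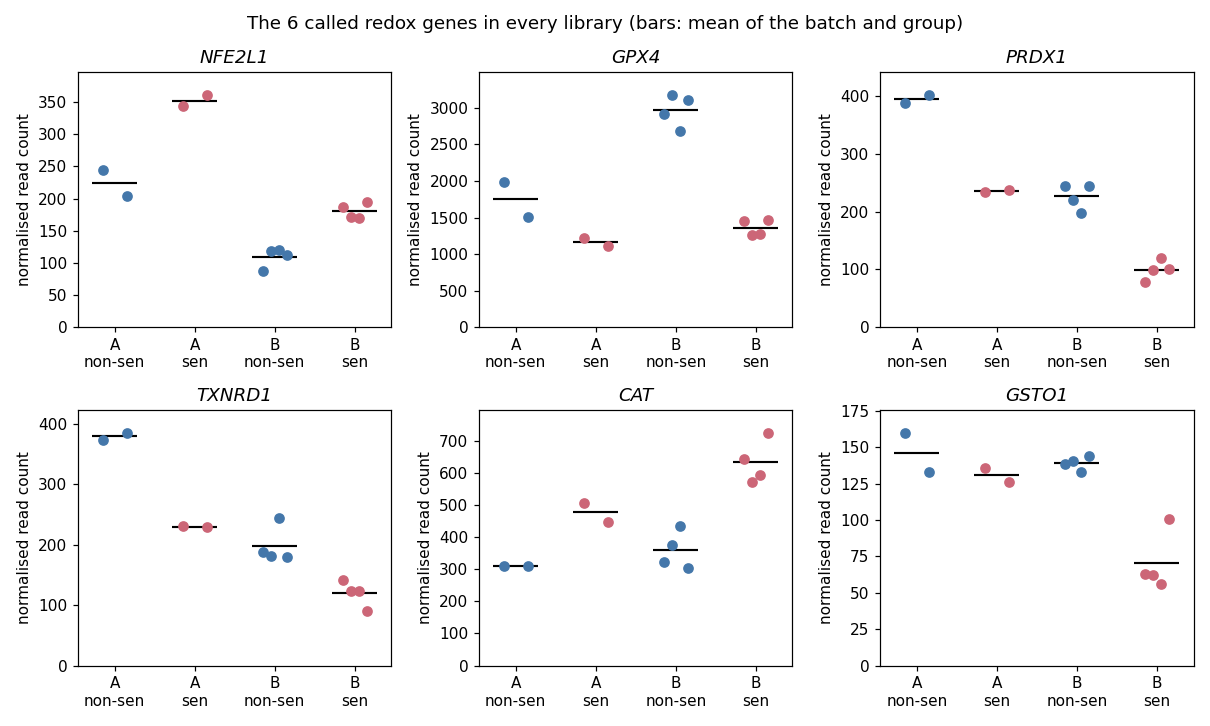
Normalised read counts (y axis, from 0) of the 6 called redox genes are plotted for each library, split by batch and group, with points for libraries and bars for the mean of each batch and group. The groups are apart within both batches for NFE2L1, CAT, GPX4, PRDX1 and TXNRD1, whereas for GSTO1 they overlap in batch A and are apart in batch B.

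Among the glutathione transferases GSTO1 fell and GSTP1 was nearly absent. GSTO1 (chr10:104235356-104267459, plus strand) encodes omega-class transferase, which also reduces dehydroascorbate. Its level was 159.5 and 133 normalised read counts in non-senescent and 136 and 126 in senescent libraries of batch A, and 139, 140.4, 133 and 144 against 63.0, 61.9, 56.1 and 101 in batch B. The groups overlapped in batch A and were apart in batch B. The log2 fold change over both was -0.72 ± 0.17 (adjusted p = 0.00263 in limma), with -1.01 in batch B and -0.15 in batch A, where alone it did not pass (adjusted p = 0.431). The difference between batches did not pass its own test (adjusted p = 0.159). GSTM3, a mu-class transferase, was at 262 and 192 against 414 and 424 in batch A and at 437, 489, 450.1 and 391 against 544, 521, 569 and 477 in batch B. Its log2 fold change of 0.47 ± 0.12 (adjusted p = 0.00373) was under the fold limit, and batch A (0.90) exceeded batch B (0.26, adjusted p of the difference 0.0917). Of the microsomal transferases, MGST3 was at 809.8 to 1012 against 667 to 848 (-0.27 ± 0.07, adjusted p = 0.00728) and MGST1 at 3.18 to 16.2 against 2.42 to 12.6 (-0.37 ± 0.34, adjusted p = 0.423). GSTP1 had 1 read in 1 of the 12 libraries, and its promoter holds the core and the AP-1 site.

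The pentose phosphate enzymes, which supply NADPH and recycle sugars, were not called. TALDO1, transaldolase, was at 525 and 527 normalised read counts in non-senescent and 496 and 464 in senescent libraries of batch A, and at 637, 625, 536 and 686 against 425, 515, 514 and 458 in batch B. All senescent libraries lay below all non-senescent ones, and the difference was 1.23-fold (-0.29 ± 0.08, adjusted p = 0.0107 in limma). PGD, which makes NADPH from 6-phosphogluconate, was at 162 to 385 against 131 to 327 (-0.16 ± 0.12, adjusted p = 0.289), and transketolase (TKT) at 306 to 469 against 353 to 417 (-0.03 ± 0.09, adjusted p = 0.82).

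The summed share of reads of the 39 genes was lower in senescent libraries. In batch A it was 2442 to 2554 ppm of reads in non-senescent and 2023 to 2061 in senescent libraries (ratio of means 0.817), and in batch B 2726 to 3034 against 2109 to 2234 (0.751). GPX4 alone made up 214 to 279 ppm of reads in non-senescent and 142 to 160 in senescent libraries of batch A, and 394 to 460 against 170 to 197 in batch B. Without GPX4 the ratios were 0.840 and 0.807, and the groups still did not overlap in either batch. INS took a larger share of reads in senescent cells (log2 fold change 2.23), and its part in these ratios was not tested.

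**Figure D3:**
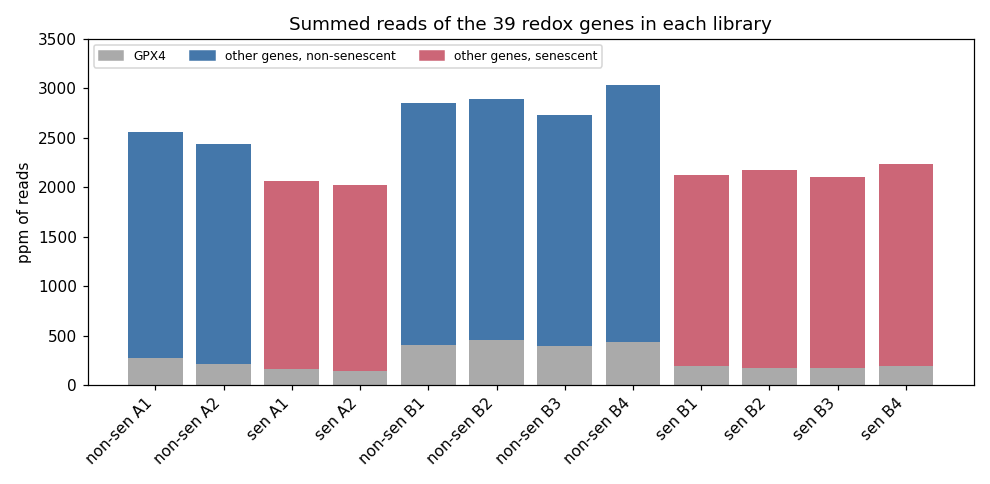
The bars give the summed ppm of reads (y axis, from 0) of the 39 redox genes in each of the 12 libraries, ordered by batch and group, with the part of GPX4 in grey. Non-senescent libraries lie at 2442 to 3034 and senescent ones at 2023 to 2234 ppm of reads.

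Levels of several redox genes also differed between batches. TXN was higher in batch B than in batch A by 1.25 on the log2 scale, and NFE2L2 by 1.39. In the other direction, batch B minus batch A was -1.25 for PRDX2, -1.03 for PRDX1 and -0.94 for TXNRD1. The groups of NFE2L1, PRDX1 and TXNRD1 overlapped over all libraries and were apart within each batch.

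A list of 139 other redox genes was examined beside the 39, and 121 of them were tested. In senescent cells 19 of these were higher (15.7%) and 11 lower (9.09%), with a median log2 fold change of 0.02. Over all tested genes 11.6% were higher and 11.8% lower, and the counts by role rest on few genes each. Cystine and glutathione turnover held 5 falls and no rise among 14 tested genes. CBS, which starts the path from homocysteine to cysteine, fell, with 106 to 217 normalised read counts in non-senescent and 7.27 to 53.0 in senescent libraries (log2 fold change -2.14 ± 0.36, adjusted p = 1.57e-04 in limma). A near-identical copy of CBS is annotated, so its reads are uncertain. SLC7A11, the cystine carrier that feeds glutathione synthesis, fell, with 30.7 to 51.7 against 13.5 to 30.3 (-0.94 ± 0.24, adjusted p = 0.0049). Its values were -1.61 in batch A and -0.61 in batch B, where alone it did not pass. In the same role GGCT, the glutathione-degrading enzyme CHAC2 and the glyoxalase GLO1 also fell, by 1.00 ± 0.10, 0.94 ± 0.20 and 0.94 ± 0.08 on the log2 scale. Each had all senescent libraries below all non-senescent ones.

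Sestrins and other peroxide or repair genes held 5 rises and no fall among 14 tested genes, where 11.6% of all genes rose and 11.8% fell. SESN1, a stress-induced regulator of mTORC1 and a known p53 target, was at 19.6 to 41.1 normalised read counts in non-senescent and 68.5 to 120.0 in senescent libraries (log2 fold change 1.63 ± 0.21, adjusted p = 7.33e-06 in limma). SESN3 rose by 1.07 ± 0.19, with 1.46 in batch B against 0.28 and overlapping groups in batch A (adjusted p of the difference 0.0443). The paraoxonase PON2 rose by 1.16 ± 0.21, a call that was lost without the batch term. SESN2 (0.61 ± 0.12) and CCS, the copper chaperone of SOD1 (0.62 ± 0.11), completed the 5 and are named after their values were seen. Both fell short of the fold limit with libraries scaled to the same total, and both were not called in batch A alone. The call of SESN2 was also lost without the batch term (adjusted p = 0.449) and without non-senescent A1, non-senescent B4, senescent A1 or senescent B4 (each left out in turn), and that of CCS without non-senescent B3.

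Iron handling held 3 rises and 1 fall among 9 tested genes, again beside 11.6% of all genes higher and 11.8% lower. The ferritin light chain FTL, which stores iron and is a known NRF2 target, was at 1399.9 to 3167 normalised read counts in non-senescent and 2816 to 5333 in senescent libraries (0.89 ± 0.08, adjusted p = 6.49e-08 in limma). The groups of FTL were apart within each batch. The iron exporter SLC40A1 (1.56 ± 0.24) and the iron importer SLC11A2 (1.00 ± 0.10) rose with all senescent above all non-senescent libraries. Of 13 tested genes of NADPH supply, the mitochondrial NAD kinase NADK2 rose (1.19 ± 0.16, lost without the batch term) and the folate enzyme MTHFD1 fell (-1.45 ± 0.11).

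The remaining roles also stand beside 11.6% of all genes called higher and 11.8% lower, and each rests on few genes. Partners of NRF2 held 2 rises among 10, of which BTRC, a ubiquitin ligase adaptor that also targets NRF2, rose by 0.74 ± 0.15. Glutaredoxins and related proteins held 2 falls among 11, of which the mitochondrial glutaredoxin GLRX2 fell (-0.69 ± 0.20, adjusted p = 0.0113), a call lost in batch B alone and without non-senescent B3. Other transferases and reductases held 5 rises and 1 fall among 24, and oxidant producers 2 rises and 1 fall among 8, the fall being the sulfhydryl oxidase QSOX1 (-0.76 ± 0.09). Among 18 tested selenoprotein genes and genes of their synthesis the 1 call was a rise, SELENOP (0.73 ± 0.12), named after its value was seen. It encodes the secreted carrier of selenium.

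**Figure D4:**
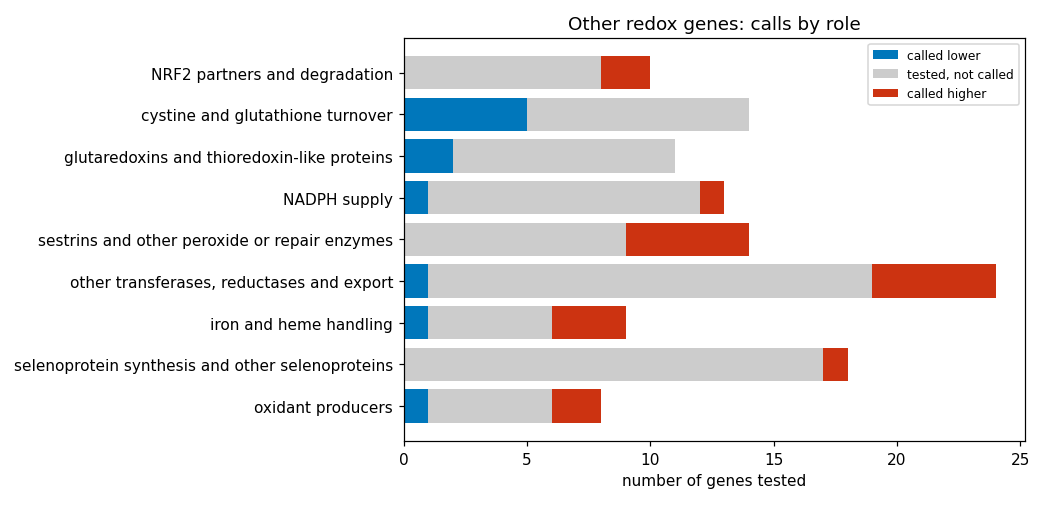
Bars give the number of tested genes (x axis) of each of 9 roles in the list of other redox genes, divided into called lower, not called and called higher in senescent cells. Cystine and glutathione turnover holds 5 falls and no rise, and sestrins and other peroxide or repair enzymes hold 5 rises and no fall. Each role has few genes, and of all tested genes 11.6% were called higher and 11.8% lower.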

How the data were processed

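RNA of 6 senescent and 6 non-senescent EndoC-βH3 samples was measured by CEL-seq2. By the study's methods and the submitters' notes, Cutadapt served the authors for trimming, Salmon 0.13.1 for quantification on GRCh38 and DESeq2 for normalisation and testing. The annotation, the strand setting and the use of molecular identifiers are not given in the sources used here. The floors for 0 reads therefore cover counting error only, whereas the ± values come from the spread between libraries in limma. Reads of similar transcripts may be divided among them. The deposited values are a signal, reads per gene divided by 1 size factor per library, called normalised read counts here. The deposited log2 fold changes, with their standard error and test statistic (a score), and the deposited p-values are the authors' own comparison and were not used. All sample columns were used (0 were left out).

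Whole reads were recovered for 100% of 196021 non-zero values (within 0.01 of a whole number). Genes with a mean of at least 5 were tested with limma 3.58.1 in R 4.3.3 on log2(value + 1), with the intensity trend, batch and group, and Benjamini-Hochberg adjustment over 13847 genes. Fold changes are on this scale and are understated for low genes. edgeR 4.0.16 and DESeq2 1.42.0 on recovered reads were alternatives, beside other pseudocounts, filters, scalings, batch terms, a replicate block, single batches and single libraries left out. The procedure was tested on simulated data. Pairs of libraries of 1 group and batch differed by more than sampling noise (chi-square per degree of freedom 4.28 to 8.05), so none was a copy of another. This measure cannot tell separate cultures from technical replicates of 1 culture. Positions came from GENCODE v44 on GRCh38 and promoters from RefSeq.

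The members, the list of other redox genes and the tests were chosen with earlier results of these data known. Genes named in full were the called members and NFE2L2, KEAP1, HMOX1, NQO1, GCLC, GCLM, TXNRD1, SRXN1, SOD2, CAT, GPX1 and GPX4. Of the other list they were up to 8 of the largest called rises and falls at a mean of at least 20, with SLC7A11 and SESN1. A further gene that the rule names is not reported here.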

Additional observations from a re-analysis of the deposited data

Results flagged for a closer look

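In 3 of 74 tests of a group of 6 libraries for a single library far from the others, 1 library stood apart. Chance flags about 1 in 20 groups of like libraries, and this number is not above that rate. Each group here mixes libraries of batches A and B, so the rate is only a rough guide. The part of batch in the flags was not tested. HMOX2 was at 210.5 normalised read counts in senescent B4, with the next library of the group at 159.5. TXNIP was at 16.5 in non-senescent B2, with the next at 4.52. TXNRD2 was at 55.0 in non-senescent A1, with the next at 38.9. The difference between groups itself differed between batches for 3 redox genes, by limma's test of the interaction. The log2 fold change in batch B minus that in batch A was -0.56 for GPX4 (adjusted p = 0.0825), -0.58 for PRDX6 (adjusted p = 0.0894) and -0.64 for GSTM3 (adjusted p = 0.0917). The batches differ also in depth and in the number of libraries, and their part in these differences was not tested.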

How the results depend on the processing

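Among the values of single redox genes under the alternatives, 835 kept their direction and side of the threshold, 13 gained a call, 4 lost one and 31 changed sign, none of them a called value. Redox genes called higher numbered 1 without the batch term and 5 in batch A alone, against 2, where 7.49% and 12.04% of all genes were higher. Those called lower numbered 7 with the same total and 2 in batch A alone, against 4, where 15.1% and 11.4% of all genes were lower. Other redox genes called higher numbered 12 without the batch term, against 19. With the same total, limma found 0 redox genes that differed between batches, 5 at an unadjusted p under 0.05, against 3 and 6, while the count over all genes was 580 against 583. The adjusted p of GPX4, PRDX6 and GSTM3 moved from 0.0825, 0.0894 and 0.0917 to 0.105, 0.120 and 0.128. With a replicate block the calls numbered 2 higher and 4 lower, as without it, where 11.5% and 11.7% of all genes were called. Same-numbered libraries did not deviate together over all genes (correlations -0.05 to 0.02). With 2 libraries per group in batch A and 4 in batch B, this cannot exclude that equal numbers mark a shared preparation. On recovered reads edgeR and DESeq2 each called 2 redox genes higher and 4 lower. Over all 13847 genes edgeR called 1561 higher (11.3%) and 1677 lower (12.1%). DESeq2, run without the filter, called 1626 higher (7.16%) and 1720 lower (7.57%) of 22707 genes. In batch A alone the sign changed for HMOX1 (0.32), GCLC (0.14), GSS (0.31), GPX2 (0.67), PRDX6 (0.23) and TKT (0.19), and in batch B alone for GSR (0.084) and PRDX5 (0.043). That of GPX2 also changed at a pseudocount of 8 (0.012) and in edgeR (0.061) and DESeq2 (0.034). With single libraries left out the values ran from -0.12 to 0.090 for GCLC, -0.12 to 0.028 for GSS, -0.10 to 0.0072 for GSR, -0.17 to 0.13 for GPX2, -0.11 to 0.048 for PRDX5, -0.064 to 0.81 for TXNIP and -0.074 to 0.012 for TKT. The cause of these changes was not tested. HMOX1, NQO1, GPX2, TXNIP and MGST1 gave no value with the filter at a mean of 20. Depth limits HMOX1, TXNIP, GPX2, GPX8, MGST1 and GSTP1, which had few reads per library.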
